A study of Homo sapiens with 24 samples.

Results

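The 10 enzymes described here make serine from a glycolytic intermediate (PHGDH, PSAT1 and PSPH), take a carbon unit from serine (SHMT1 and SHMT2) and carry that unit on folate (MTHFD1, MTHFD1L, MTHFD2, MTHFD2L and ALDH1L2). Their probes were found by the RefSeq accession that the arrays give for each probe. This gave 15 probes, all of which passed the filter on dim probes, so that all 10 enzymes were among the 21240 genes tested. Of the enzymes, 7 were measured by 1 probe only. PHGDH and MTHFD1 were among them, each with 1 spot on an array, so that no other probe could be compared. The enzymes were chosen by their place in the pathway with their log2 values over the 8 groups already in view. Their changes are therefore given as a description, with the share of all tested genes that was called in the same way beside them, and nothing is read from these shares.

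RNA came from 3D aggregates of LUHMES, a human mesencephalic cell line that is immortalized by a tetracycline-controlled v-myc and differentiates into dopaminergic neurons. All groups were differentiated on a shaker in medium with cAMP, GDNF, tetracycline and N2, and all came from this 1 line. On day 7 the aggregates were given 50 nM rotenone for 12 h, 50 nM for 24 h or 100 nM for 24 h, or the solvent DMSO in the amount that came with 100 nM; the labels give no duration for DMSO. Rotenone is a plant-derived inhibitor of complex I, the entry point of the mitochondrial respiratory chain. Aggregates were taken right after exposure (day 8) or after the compound was washed out and 7 days of recovery (day 15), which makes 8 groups of 3 arrays. The question was which transcripts an acute exposure moved and whether they had come back after recovery.

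Between 50.9% and 82.4% of an array's spots exceeded background clearly. Values are log2 intensities after quantile normalization and correction of the repeated slide. The replicate number is the slide number, each slide held 1 array of each group, and slide 1 was a repeat made at another time. Each group had its own fixed position on the slides, and the effects of position and of group cannot be told apart. The scan of day 15 DMSO replicate 1 carries a name for 12 h without the word DMSO, and its group was taken from its label. The changes of the enzymes that use this array were also computed without it, and after the data were seen so were the counts of the gene lists and the correlations. All 8 neuronal markers were well above background in every group, and 7 or 8 of 9 dopaminergic markers were, while at most 1 of 6 astrocyte markers, 1 of 5 tested microglial markers and 3 of 5 tested markers of the oligodendrocyte lineage were. In whole aggregates, fewer cells of a type and less RNA per cell cannot be told apart. The labels do not say whether the 3 samples of a group were separate cultures, so that p values measure the spread between these samples only.

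Serine synthesis starts from 3-phosphoglycerate, which PHGDH oxidizes with NAD+, PSAT1 aminates with glutamate and PSPH dephosphorylates. Serine hydroxymethyltransferase then passes a carbon of serine to tetrahydrofolate and leaves glycine, in mitochondria with SHMT2 and in the cytosol with SHMT1. In mitochondria MTHFD2 or MTHFD2L oxidizes this unit, and MTHFD1L releases it as formate, or ALDH1L2 burns it to carbon dioxide. In the cytosol MTHFD1 takes up formate and returns the unit to folate for purines, thymidylate and methionine. Several of these genes are textbook targets of ATF4, the transcription factor of the integrated stress response, which can be switched on when respiration is inhibited.

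Upstream sequence was at hand for 7 of the 10 enzymes, in 11 windows of RefSeq on GRCh38.p14, and the 250 bases before each annotated start were searched on both strands. The 3 windows below belong to the enzyme with the largest decrease on day 8, the only one with a called increase, and the one that was lower in all 3 exposures and holds both motifs. Capitals mark TGATGCAA, a core of the composite element that ATF4 binds with C/EBP partners, and CACGTG, the E-box bound by MYC and related factors; the motifs do not overlap.
PHGDH, chr1:119711684-119711933, plus strand: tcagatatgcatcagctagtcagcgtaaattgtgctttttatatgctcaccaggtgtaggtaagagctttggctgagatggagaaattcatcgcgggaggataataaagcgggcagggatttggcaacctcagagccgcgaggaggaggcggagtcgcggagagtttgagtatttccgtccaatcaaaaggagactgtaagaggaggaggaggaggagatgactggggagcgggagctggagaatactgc
MTHFD1, chr14:64388103-64388352, plus strand: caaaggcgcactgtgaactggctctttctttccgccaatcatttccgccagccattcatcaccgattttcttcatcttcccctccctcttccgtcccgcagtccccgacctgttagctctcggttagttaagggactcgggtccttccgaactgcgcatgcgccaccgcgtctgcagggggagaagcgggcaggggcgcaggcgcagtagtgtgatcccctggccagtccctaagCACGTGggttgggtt
MTHFD1L, chr6:150866236-150866485, plus strand: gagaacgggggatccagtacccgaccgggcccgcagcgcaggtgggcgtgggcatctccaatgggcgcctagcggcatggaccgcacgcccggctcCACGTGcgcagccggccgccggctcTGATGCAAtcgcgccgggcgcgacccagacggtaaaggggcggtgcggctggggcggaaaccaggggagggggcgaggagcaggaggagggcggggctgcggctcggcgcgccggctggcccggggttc
TGATGCAA was found in 1 of the 7 enzymes, MTHFD1L, in 2 of its 4 windows, and in 0.772% of all 35116 windows of this length. These 2 windows overlap and hold the same site. CACGTG was found in MTHFD1 and MTHFD1L, and in 6.34% of all windows. The window of PHGDH held neither. A match is only a match of letters, and no match says nothing about other forms of a site.

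PHGDH, the enzyme that commits 3-phosphoglycerate to serine, was the enzyme with the largest change. On day 8 its log2 intensities were 12.01, 11.69 and 11.87 in DMSO, 10.98, 11.07 and 10.78 after 50 nM for 12 h, 10.66, 10.996 and 10.86 after 50 nM for 24 h, and 10.83, 10.89 and 10.78 after 100 nM. All 9 rotenone arrays lay below all 3 DMSO arrays. Here and below, the share of all genes whose arrays separated in this way was not computed, so that nothing is read from it. The log2 difference from DMSO was -0.91 ± 0.12 (SE, limma, p adjusted over all genes = 1.26e-04) after 12 h, -1.02 ± 0.12 (2.36e-05) after 24 h of 50 nM and -1.03 ± 0.12 (1.49e-05) with 100 nM, a 2.04-fold lower level. Within a slide the difference ranged from -1.33 to -0.60 over the 9 pairs. On day 15 the arrays lay between 11.80 and 12.15 in all 4 groups, and rotenone and DMSO arrays overlapped. With the 8 groups put in order of their mean, the 3 rotenone groups of day 8 came lowest (10.83 to 10.95), followed by DMSO of day 8 (11.86) and the 4 groups of day 15 (11.94 to 12.10), and neighbours differed by less than their spread except at the step from 10.95 to 11.86.

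PSAT1, the aminotransferase of the second step, was lowest at 12 h. Its intensities were 9.04, 8.66 and 8.61 in DMSO and 8.20, 8.15 and 8.07 after 12 h of 50 nM, without overlap. After 24 h they were 8.38, 8.67 and 8.56 with 50 nM and 8.40, 8.52 and 8.37 with 100 nM, between the levels of the other two groups in the mean. The change was -0.63 ± 0.14 (adjusted p = 0.0092) at 12 h, -0.24 ± 0.14 (0.391) at 24 h of 50 nM and -0.35 ± 0.14 (0.141) with 100 nM. DMSO replicate 1 was the highest of these arrays, and without it the change at 12 h was -0.49 (adjusted p = 0.065). The 2 probes of PSAT1 changed by -0.63 each at 12 h. After 24 h of 50 nM their means were 10.60 and 6.48, against 10.70 and 6.85 in DMSO. With 100 nM all 3 arrays lay below those of DMSO, and the change passed with the brightest probe of the gene (-0.31, adjusted p = 0.049).

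PSPH, the phosphatase of the last step, gave 9.36, 9.27 and 9.08 in DMSO and 8.91, 8.996 and 8.76 after 12 h, again without overlap (-0.35 ± 0.09, adjusted p = 0.023). This change did not pass without DMSO replicate 1 (-0.29, 0.124) or 2 (-0.33, 0.082), nor without replicate 1 (-0.36, 0.053) or 3 (-0.28, 0.110) of the 12 h exposure. After 24 h the change was -0.07 ± 0.09 at both doses, and the arrays overlapped those of DMSO. By this threshold and with the mean of a gene's probes, PHGDH thus changed in all 3 exposures on day 8. PSAT1 and PSPH changed in the 12 h exposure only. Whether the change differed between 12 and 24 h was tested separately, and is given after the folate enzymes.

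SHMT2, the mitochondrial serine hydroxymethyltransferase, gave 12.44, 12.29 and 12.43 in DMSO and 11.81, 11.97 and 12.06 after 12 h (-0.44 ± 0.08, adjusted p = 0.0036). After 24 h its 6 arrays lay between 12.25 and 12.48 and overlapped DMSO, with changes of -0.01 ± 0.08 and -0.03 ± 0.08 for 50 and 100 nM. SHMT1, the cytosolic form, lay between 5.62 and 6.03 on all 12 arrays of day 8, and its changes of -0.06 to 0.19 did not pass the threshold. The levels of 2 genes on an array cannot be compared with each other, so that no ratio of the forms is given.

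MTHFD1, the cytosolic enzyme with 3 activities that loads formate onto folate, was the only enzyme with a called increase. It measured 9.65, 9.12 and 9.30 in DMSO, 9.95, 9.97 and 9.94 after 12 h, 10.02, 10.15 and 10.001 after 24 h of 50 nM, and 10.11, 10.14 and 10.02 after 100 nM. All 9 rotenone arrays were above DMSO, among which replicate 1 was the highest. The change was 0.59 ± 0.10 (adjusted p = 0.0017), 0.70 ± 0.10 (2.67e-04) and 0.73 ± 0.10 (1.32e-04), a 1.66-fold higher level with 100 nM. Within a slide the increase ranged from 0.28 to 1.05. In a fit of the compared arrays alone, which leaves fewer arrays to estimate the spread, the adjusted p was 0.132 at 12 h, 0.063 after 24 h of 50 nM and 0.051 with 100 nM.

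MTHFD1L, the mitochondrial enzyme that releases formate, ran the other way. Its intensities were 7.24, 6.91 and 7.09 in DMSO, 6.46, 6.60 and 6.59 after 12 h, 6.50, 6.66 and 6.66 after 24 h of 50 nM, and 6.57, 6.71 and 6.69 after 100 nM, so that no rotenone array reached DMSO. The changes were -0.53 ± 0.09 (adjusted p = 9.94e-04), -0.47 ± 0.09 (0.0018) and -0.42 ± 0.09 (0.0036), each below a fold change of 1.5. It was measured by 4 probes, of which 3 fell by 0.47 to 0.64 on the log2 scale with 100 nM, while the dimmest in DMSO changed by -0.09 ± 0.15. None of the 3 changes of MTHFD1L passed without batch correction (adjusted p 0.220 to 0.311), on slides 2 and 3 alone (0.247 to 0.366) or in a fit of the compared arrays alone (0.087 to 0.112).

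MTHFD2, the mitochondrial dehydrogenase, gave 11.15, 10.97 and 10.98 in DMSO and 10.45, 10.56 and 10.72 after 12 h (-0.46 ± 0.11, adjusted p = 0.017). It did not pass without DMSO replicate 1 (-0.40, 0.088) or without replicate 1 (-0.39, 0.080) or 2 (-0.45, 0.058) of the 12 h exposure. After 24 h it was 10.84, 11.02 and 10.84 with 50 nM and 10.65, 10.86 and 10.67 with 100 nM, with changes of -0.14 ± 0.11 (0.596) and -0.31 ± 0.11 (0.092). The arrays of 100 nM all lay below those of DMSO, and this change passed with a normexp offset of 50 (-0.30, 0.044). Its relative MTHFD2L, which is dim, lay between 4.89 and 5.54 on day 8. Its changes were 0.25 ± 0.18 at 12 h, 0.35 ± 0.18 after 24 h of 50 nM and 0.20 ± 0.18 with 100 nM, and did not pass the threshold. Only after 24 h of 50 nM, with 5.45, 5.52 and 5.45 against 4.89, 5.21 and 5.26, did the arrays not overlap.

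ALDH1L2, which oxidizes formyl-folate in mitochondria, gave 7.24, 6.83 and 6.81 in DMSO against 6.46, 6.13 and 6.35 after 12 h, 6.05, 6.27 and 6.29 after 24 h of 50 nM, and 6.0002, 6.33 and 6.57 with 100 nM. Again no rotenone array reached DMSO, and the SD of a group on day 8 was 0.14 to 0.29. The change of -0.76 ± 0.22 after 24 h of 50 nM passed (adjusted p = 0.042), while -0.65 ± 0.22 (0.107) and -0.66 ± 0.22 (0.072) did not. With a replicate block, the slide as a term of the fit and no batch correction, these 2 passed, at -0.64 (0.049) and -0.61 (0.044). With the authors' normalized values they passed at -0.64 (0.010) and -0.61 (0.0097), and with only probes well above background on all arrays of a group the change with 100 nM passed at -0.66 (0.045). Without DMSO replicate 1 the change after 24 h of 50 nM was -0.62 (0.189), and leaving out any other of the 6 arrays, DMSO replicate 2 or 3 or any replicate of the exposure, also ended the call (-0.68 to -0.83, 0.069 to 0.159).

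**Figure D1:**
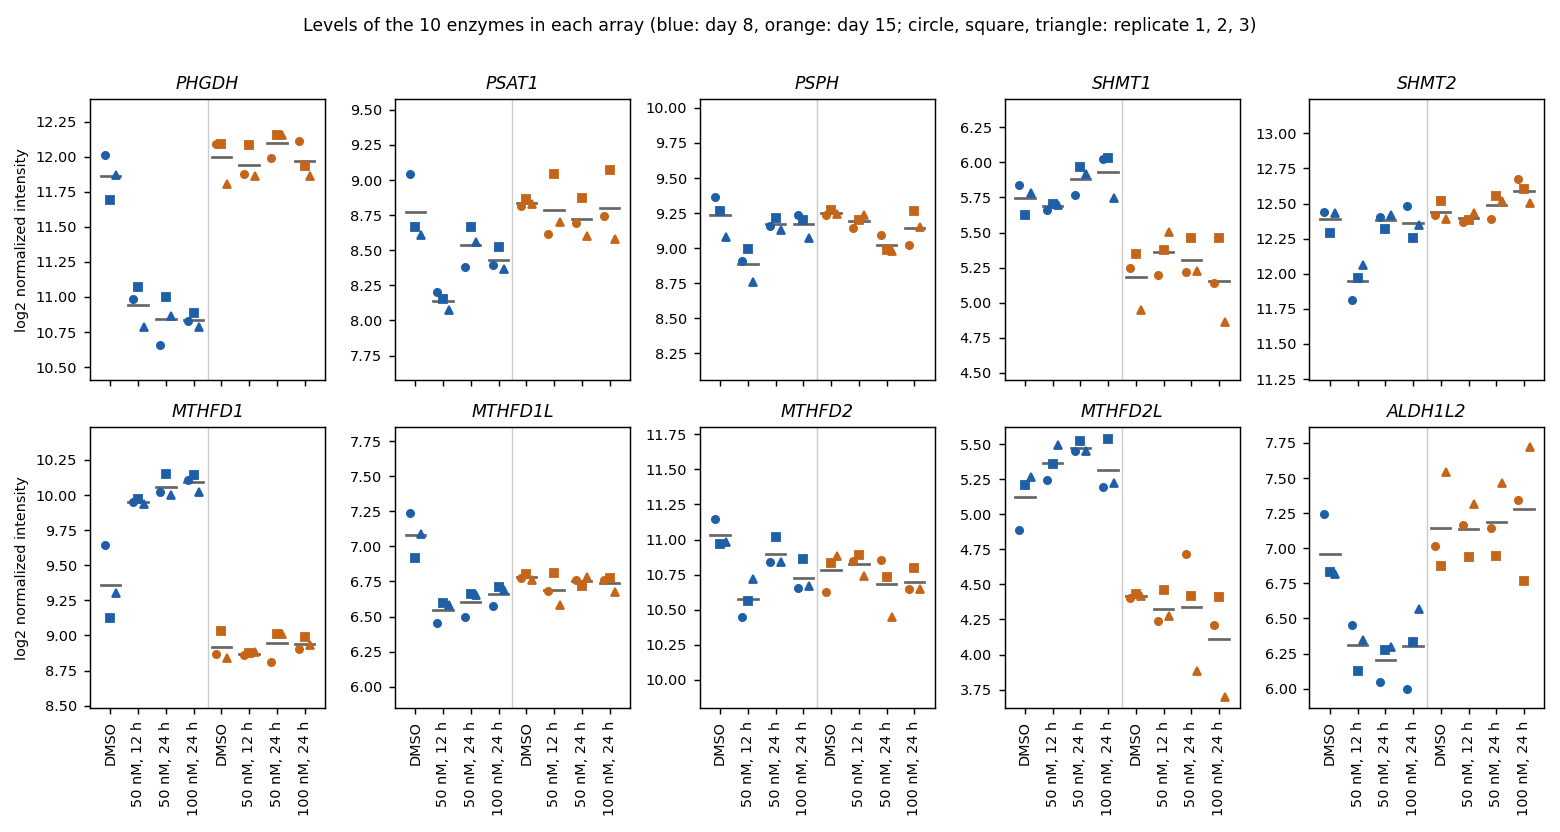
Log2 normalized intensity (y axis, 2 log2 units in each panel) of each enzyme on each of the 24 arrays, by group (x axis); points are arrays (circle, square and triangle for replicates 1, 2 and 3; blue for day 8, orange for day 15) and bars are group means of 3 arrays. PHGDH lay at 10.66 to 11.07 with rotenone on day 8 against 11.69 to 12.01 in DMSO, MTHFD1 was above DMSO on the same 9 arrays, and on day 15 the groups lay together.

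The study first called genes that changed more than 1.5-fold with an adjusted p below 0.05. Its gene lists of both days then used an unadjusted p with the same fold change, and that rule was not applied here. By the first rule 100 nM on day 8 called MTHFD1 up and PHGDH down. Of all genes, 1.43% were called up and 2.02% down. With no limit on the fold change, MTHFD1L was also down, beside 4.07% of all genes up and 5.41% down. The median change of the 10 enzymes was -0.19, and that of all genes -0.02.

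After 24 h of 50 nM, MTHFD1 was called up and PHGDH and ALDH1L2 down, beside 1.38% and 1.42% of all genes. With no limit on the fold change MTHFD1L joined those down, beside 3.66% up and 4.36% down of all genes. After 12 h, MTHFD1 was called up and PHGDH and PSAT1 down, beside 0.829% and 0.923% of all genes. With no limit on the fold change 6 of the 10 enzymes were down at 12 h (PHGDH, PSAT1, PSPH, SHMT2, MTHFD1L and MTHFD2) and 1 up, beside 2.85% and 2.66% of all genes. None of these 7 passed at 12 h on slides 2 and 3 alone or in a fit of the compared arrays alone. Without batch correction PSAT1 (adjusted p in limma 0.375), PSPH (0.449), MTHFD1L (0.220) and MTHFD2 (0.636) did not pass. MTHFD2 also did not pass with 75th percentile scaling (0.054). The median change of the enzymes was -0.10 after 24 h of 50 nM and -0.45 after 12 h, with medians of -0.02 and -0.01 over all genes. These 3 comparisons use the same DMSO arrays, so that they are not independent.

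**Figure D2:**
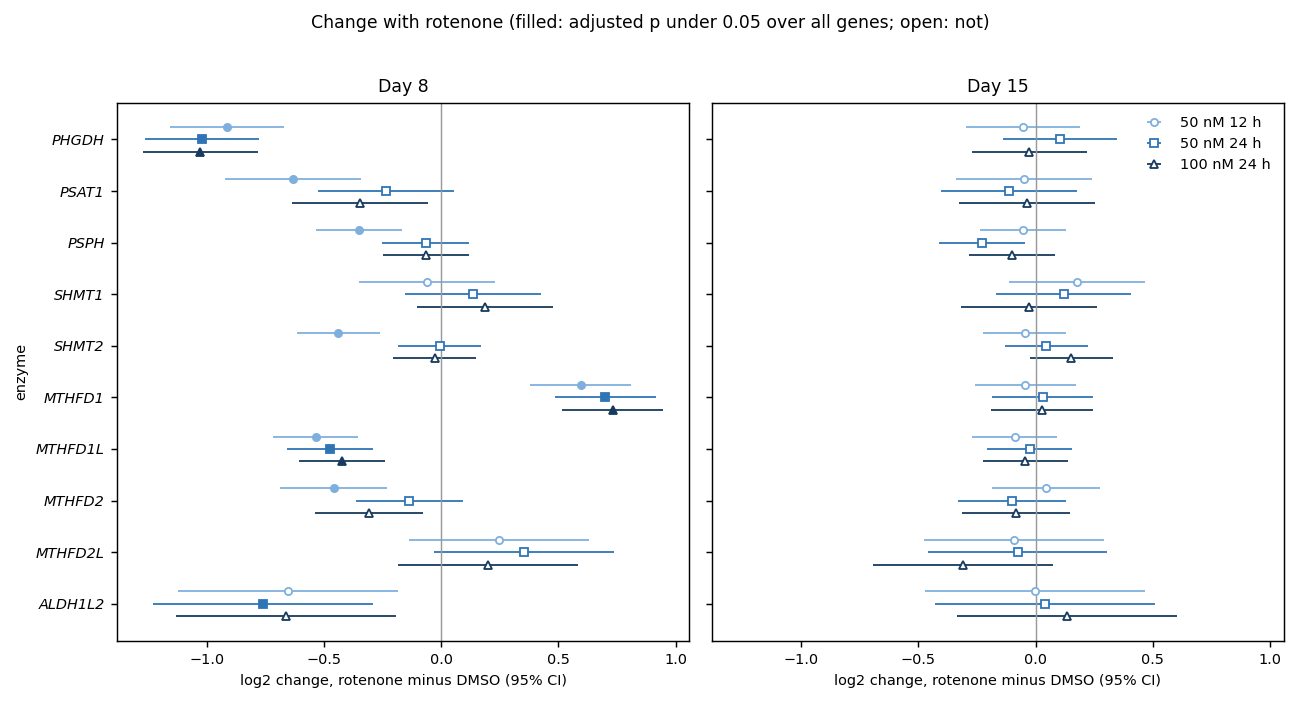
Log2 change of each enzyme (y axis) from DMSO of the same day (x axis, rotenone minus DMSO, with the 95% confidence interval of the fit over 24 arrays) for the 3 exposures, on day 8 (left) and day 15 (right); filled points have an adjusted p under 0.05. On day 8 PHGDH lay between -1.03 and -0.91 and MTHFD1 between 0.59 and 0.73, whereas PSAT1, PSPH, SHMT2 and MTHFD2 were farthest from 0 at 12 h; on day 15 all points lay within 0.31 of 0.

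The difference between 24 and 12 h of 50 nM on day 8 compares the 2 durations at the same dose. With both taken right after exposure, their start or their harvest also differed in time. Duration cannot be told apart from this. SHMT2 was 0.43 ± 0.08 higher at 24 h (adjusted p = 0.022), with all 3 arrays above those of 12 h. It was the only enzyme past an adjusted p of 0.05, beside 0.268% of all genes that were higher at 24 h. The call was lost without replicate 1 or 2 of 12 h, or without replicate 1, 2 or 3 of 24 h (0.36 to 0.46 higher, adjusted p 0.057 to 0.150). It was also lost with 75th percentile scaling (0.059), without batch correction (0.267), in a fit of the compared arrays alone (0.433) and on slides 2 and 3 alone (0.955). PSAT1 was 0.40 ± 0.14 higher (0.251), MTHFD2 0.32 ± 0.11 (0.234) and PSPH 0.28 ± 0.09 (0.185), and these did not pass. All 3 arrays of each lay above those of 12 h, but so did those of SHMT1 (0.20, adjusted p in limma 0.693) and MTHFD1 (0.11, 0.819). Under other settings PSAT1 passed with the brightest probe of a gene (0.52, 0.014) and PSPH with the processed signal (0.39, 0.037). PHGDH differed by -0.11 ± 0.12, with a 95% confidence interval of -0.35 to 0.14, and MTHFD1 by 0.11 ± 0.10 (-0.11 to 0.32).

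Doses were compared at 24 h on day 8. No enzyme differed between 100 and 50 nM at an adjusted p under 0.05, as for 0% of all genes by limma; at an unadjusted p under 0.05 there were 0 of the 10 enzymes and 886 of all genes. The difference of PHGDH was -0.01, with a 95% confidence interval of -0.25 to 0.24, and that of MTHFD1 0.03 (-0.19 to 0.25). The largest difference was that of MTHFD2, at -0.17 (-0.40 to 0.06).

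Each slide held both a DMSO and a rotenone array of every exposure. PHGDH, MTHFD1L and ALDH1L2 were lower, and MTHFD1 higher, than the DMSO array of the same slide in all 9 pairs. For 100 nM the differences of PHGDH were -1.18, -0.79 and -1.09 on slides 1, 2 and 3, and those of MTHFD1 0.44, 1.03 and 0.72. Those of ALDH1L2 were -1.12, -0.49 and -0.21, the widest spread of the 3 enzymes. At 12 h PSAT1, PSPH, SHMT2 and MTHFD2 were lower on all 3 slides, most on slide 1 (-0.80, -0.45, -0.63 and -0.69). These differences are from values before batch correction, and the pairs of a slide share its DMSO array. The share of all genes with the same direction in all pairs was not computed, so that nothing is read from these counts.

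**Figure D3:**
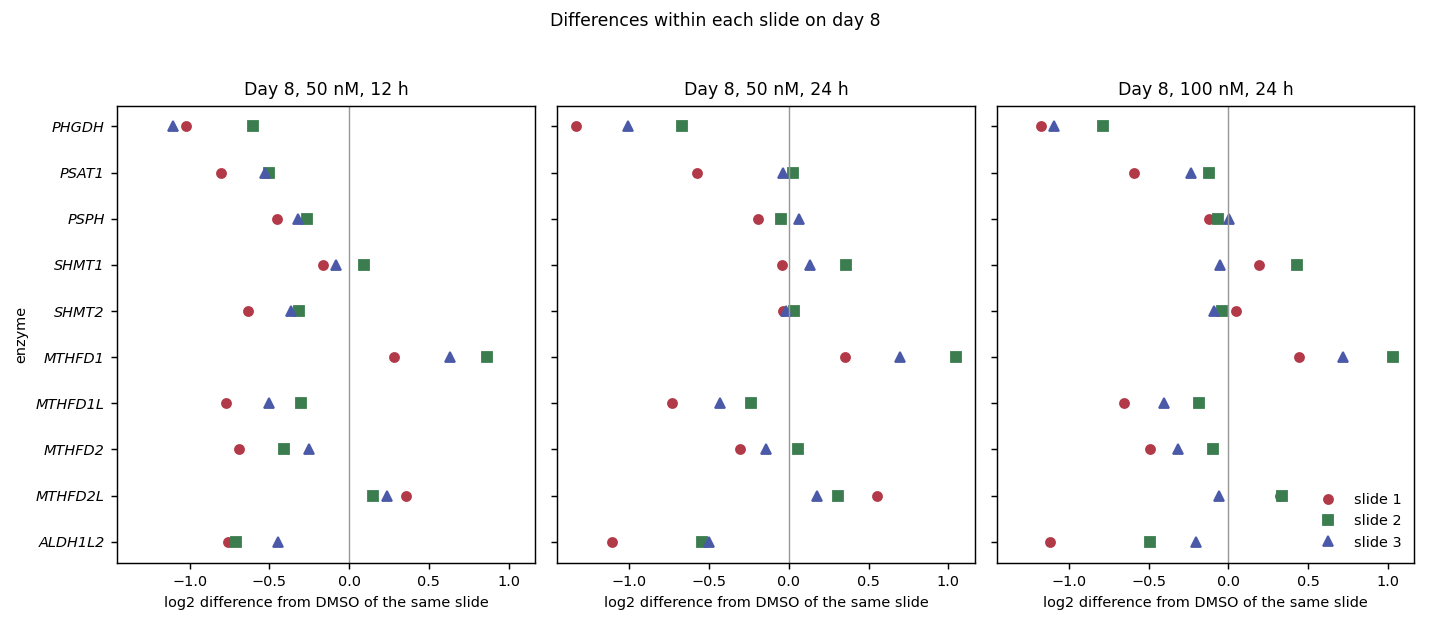
Log2 difference of each enzyme (y axis) between the rotenone array and the DMSO array of the same slide (x axis) on day 8, with 1 point a slide and 1 panel an exposure. All 9 differences of PHGDH lay between -1.33 and -0.60 and all 9 of MTHFD1 between 0.28 and 1.05; for SHMT2 the 3 points of 12 h lay between -0.63 and -0.31 and the 6 of 24 h around 0.

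On day 15, after the wash-out and 7 days of recovery, 0 of the 10 enzymes passed in any of the 3 comparisons with DMSO. Of all genes, 0% passed after 100 nM, 0% after 50 nM for 24 h and 0% after 50 nM for 12 h (limma, adjusted p under 0.05). At an unadjusted p under 0.05 there was 1 enzyme in the 3 comparisons, PSPH after 50 nM for 24 h (-0.23 ± 0.09, adjusted p = 0.9998), with 8.98, 8.99 and 9.09 against 9.23, 9.24 and 9.27. Among all genes, 1532, 697 and 737 had such a p. PHGDH differed from DMSO by -0.03 ± 0.12 after 100 nM, with a 95% confidence interval of -0.27 to 0.22. MTHFD1 differed by 0.03 ± 0.10 (-0.19 to 0.24). ALDH1L2 differed by 0.13 ± 0.22, and its interval of -0.33 to 0.60 was the widest of the 10. MTHFD2L had the largest difference, -0.31 ± 0.18 after 100 nM, and was well above background on 2 of the 3 arrays of each rotenone group. Without day 15 DMSO replicate 1, 0 enzymes passed in each comparison, and the change of PHGDH after 100 nM was 0.02 and that of MTHFD1 0.01.

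Over the 12 arrays of day 15, MTHFD1 lay between 8.81 and 9.03, below all arrays of day 8. MTHFD1L lay between 6.58 and 6.81, SHMT2 between 12.37 and 12.67, and MTHFD2 between 10.45 and 10.89. ALDH1L2 had the widest range but for MTHFD2L, from 6.77 to 7.72, and in each of the 4 groups replicate 3 was the highest and replicate 2 the lowest. MTHFD2L lay between 3.70 and 4.72, below all 12 arrays of day 8.

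Whether the change with 100 nM differed between the days was tested as an interaction. The change of PHGDH was 0.9998 ± 0.16 higher on day 15 than on day 8 (adjusted p = 0.0022), and that of MTHFD1 was 0.70 ± 0.15 lower (-0.70, adjusted p = 0.012). Both were called, 1 in each direction, beside 0.899% of all genes higher and 1.02% lower. The change of ALDH1L2 was 0.80 ± 0.32 higher (0.231) and that of MTHFD1L 0.38 ± 0.12 higher (0.122), and these did not pass. Without day 15 DMSO replicate 1 the values of PHGDH and MTHFD1 were 1.05 (0.0040) and -0.73 (0.022). Both lost the call on slides 2 and 3 alone (0.89, 0.246 and -0.85, 0.163) and without batch correction (0.99, 0.053 and -0.70, 0.115). That of MTHFD1 was also lost in a fit of the compared arrays alone (0.138).

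DMSO aggregates of day 15 and day 8 show the levels of the enzymes as the aggregates aged. MTHFD2L, the mitochondrial dehydrogenase related to MTHFD2, was 4.40, 4.43 and 4.41 on day 15 against 4.89, 5.21 and 5.26 on day 8 (-0.70 ± 0.18, adjusted p = 0.0083). It was the only enzyme past a fold change of 1.5, beside 5.79% of all genes up and 6.38% down. With no limit on the fold change, SHMT1 (-0.56 ± 0.14, 0.0055), MTHFD1 (-0.44 ± 0.10, 0.0036) and MTHFD1L (-0.30 ± 0.09, 0.016) were also down, beside 10.1% of all genes up and 13.2% down. None of the 10 enzymes was up. MTHFD1L did not pass without day 8 DMSO replicate 1 (-0.22, 0.101), and on slides 2 and 3 alone none of the 4 passed (0.083 to 0.340). SHMT1, which is dim, had 5.25, 5.35 and 4.95 against 5.84, 5.62 and 5.78. It did not pass with its brightest probe (-0.43, 0.113), 75th percentile scaling (0.137), the processed signal (0.058) or no batch correction (0.195). Scaling to the 75th percentile and no batch correction also ended the calls of MTHFD2L (0.078 and 0.115) and MTHFD1L (0.171 and 0.362). The enzymes down were thus cytosolic (SHMT1 and MTHFD1) and mitochondrial (MTHFD1L and MTHFD2L).

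The 3 enzymes of serine synthesis did not pass in this comparison. PHGDH changed by 0.13 ± 0.12 (95% confidence interval -0.11 to 0.38), PSAT1 by 0.06 ± 0.14 and PSPH by 0.01 ± 0.09. SHMT2 changed by 0.05 ± 0.08. The median of the 10 enzymes was -0.12 and that of all genes -0.04. Without day 15 DMSO replicate 1 the same 4 enzymes passed, MTHFD1L at 0.045, and SHMT1 (-0.60) was then also past a fold change of 1.5.

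Markers of dividing cells moved with the same comparison. Counts of markers have no limit on the fold change, and of all genes 10.1% were up and 13.2% down between the days in this way. Of 15 tested proliferation markers, 12 were down from day 8 to day 15 and 0 up, with a median of -1.05, among them the replication helicase subunits MCM5 (-0.95 ± 0.11, 4.57e-06) and MCM3 (-0.61 ± 0.09, 3.85e-05). Their summed intensity was 3951 to 5010 in DMSO on day 8, 2673 to 3000 in DMSO on day 15, and 3555 to 3904 after 100 nM on day 8. With 100 nM on day 8, 0 of the 15 passed, with a median of -0.26, and those with the smallest p were AURKB (-0.88 ± 0.39, 0.201), RRM2 (-1.33 ± 0.63, 0.243) and MCM3 (-0.17 ± 0.09, 0.271). The summed intensity of the dopaminergic markers was 2094 to 2217 in DMSO on day 8 and 1145 to 1329 on day 15. Bright genes weigh most in such a sum of linear intensities. Between the days 5 of these 9 markers had a change above 0, with 3 up and 2 down at an adjusted p under 0.05. Their changes ranged from -2.94 to 1.57, with a median of 0.26. Those down were TH (-2.94), the rate-limiting enzyme of dopamine synthesis, and SLC6A3 (-2.07), the dopamine transporter. The 3 up are not named here, and no gain or loss of dopaminergic identity is read from these markers. The summed intensity of the oligodendrocyte lineage was 751 to 824 and 159 to 188. Of its 5 tested markers 0 were up and 1 was down, the transcription factor OLIG2 (-4.00, adjusted p = 1.23e-11), with a median of 0.10. Without day 15 DMSO replicate 1, 10 of the 15 proliferation markers were down, 1 of the 9 dopaminergic markers was up and 2 were down, and 1 of the oligodendrocyte lineage was down. The part of these markers in the changes of the enzymes was not tested. Of the neuronal markers, 2 of 8 were down with 100 nM on day 8, beside 5.41% of all genes. These were MAP2 (-0.57) and SNAP25 (-0.30), a microtubule-associated protein and a synaptic fusion protein. After 50 nM, 1 of the 8 was down at 24 h and 0 at 12 h, beside 4.36% and 2.85% of all genes. Between the days in DMSO, 2 of the 8 were up and 1 was down, with a median of 0.25.

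The genes around these enzymes were taken from lists of the neighbouring pathways, and counts have no limit on the fold change. Of all genes, 4.07% were up and 5.41% down in this way with 100 nM on day 8, 3.66% and 4.36% after 24 h of 50 nM, and 2.66% and 2.85% after 12 h. Of 20 genes of serine and glycine transport and breakdown, 2 were up and 3 down with 100 nM on day 8, with a median of 0.07. The glycine transporter SLC6A9 changed by -0.71 ± 0.14 (adjusted p = 0.0033) and GLDC, the glycine-cleaving enzyme of mitochondria, by -0.54 ± 0.14 (0.014). SDSL, a serine dehydratase-like enzyme, changed by 0.58 ± 0.17 (0.034). The other two called were AMT, a partner of GLDC in glycine cleavage (0.75 ± 0.23, 0.043), and SLC1A4, a carrier of neutral amino acids (-0.32 ± 0.10, 0.048). At 12 h 1 of the 20 was down, SLC1A4 (-0.48 ± 0.10, 0.0067), and after 24 h of 50 nM 2 were.

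Of 17 genes of the folate cycle and folate transport, 1 was up and 1 down with 100 nM, with a median of 0.01. GGH, which trims folate polyglutamates, changed by 0.41 ± 0.09 (0.0043) and FTCD, which feeds histidine carbon into folate, by -0.72 ± 0.17 (0.0092). The folate carrier SLC19A1 changed by 0.33 ± 0.11 (0.069). Of 12 genes of the methionine cycle and transsulfuration, 1 was up and 1 down. CTH and CBS, the enzymes that lead from homocysteine to cysteine, changed by 0.29 ± 0.07 (0.020) and -0.37 ± 0.10 (0.030). AHCYL1, a relative of the hydrolase of S-adenosylhomocysteine, changed by -0.28 ± 0.11 (0.152).

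Of 12 tested genes of purine synthesis, which uses formyl-folate, 1 was up and 0 down, with a median of 0.22 and a range of -0.27 to 0.43. This was ATIC, the enzyme of the last steps (0.25 ± 0.07, 0.040). IMPDH2 (0.43 ± 0.13, 0.052) and PAICS (0.25 ± 0.09, 0.105) did not pass.

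Of 13 genes of the ATF4 relay and its readouts, 3 were up and 3 down with 100 nM, with a median of -0.01. ASNS, asparagine synthetase, changed by -0.55 ± 0.08 (1.94e-04), and the stress protein SESN2 by -0.55 ± 0.10 (0.0013). OMA1, the mitochondrial protease that starts the relay, changed by 0.43 ± 0.11 (0.013). The others called were the transcription factor ATF5 (0.50 ± 0.13, 0.016), the secreted factor GDF15 (0.93 ± 0.27, 0.032) and CHAC1, which degrades glutathione (-0.43 ± 0.11, 0.019). ATF4 itself changed by -0.23 and did not pass (0.138). At 12 h 1 of the 13 was up, OMA1 (0.46 ± 0.11, 0.014), and 3 were down, CHAC1 (-1.10 ± 0.11, 1.13e-05), SESN2 (-0.77 ± 0.10, 1.34e-04) and ASNS (-0.48 ± 0.08, 0.0014).

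On day 15, 0 genes of these lists passed with 100 nM, and with 50 nM for 24 h or 12 h 0 passed as well, as for all genes and as without day 15 DMSO replicate 1.

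Between the days in DMSO, where 10.1% of all genes were up and 13.2% down, the serine and glycine list had 2 genes up and 4 down, with SLC1A4 at 0.76 ± 0.10 (1.38e-05) and SFXN3, a sideroflexin of the inner mitochondrial membrane, at 0.76 ± 0.11 (4.06e-05). The folate list had 2 up and 2 down, with FTCD at 1.43 ± 0.17 (3.22e-06) and MTHFS, which reclaims 5-formyl-folate, at -0.57 ± 0.09 (1.24e-04). The methionine list had 0 up and 4 down, among them MTR, methionine synthase (-0.45 ± 0.11, 0.0068), and CTH (-0.28 ± 0.07, 0.011). Purine synthesis had 1 up, ADSS1 (1.08 ± 0.09, 3.60e-08), and 4 down, among them PAICS (-0.69 ± 0.09, 2.16e-05). The ATF4 list had 2 up and 2 down, among them CHAC1 (0.59 ± 0.11, 6.63e-04), and DELE1, which relays mitochondrial stress (-0.44 ± 0.12, 0.010). Without day 15 DMSO replicate 1 the serine and glycine list had 3 down, the methionine list 2 down and the ATF4 list 1 up, with the other counts of these lists as before, and CTH did not pass (-0.24, 0.053).

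**Figure D4:**
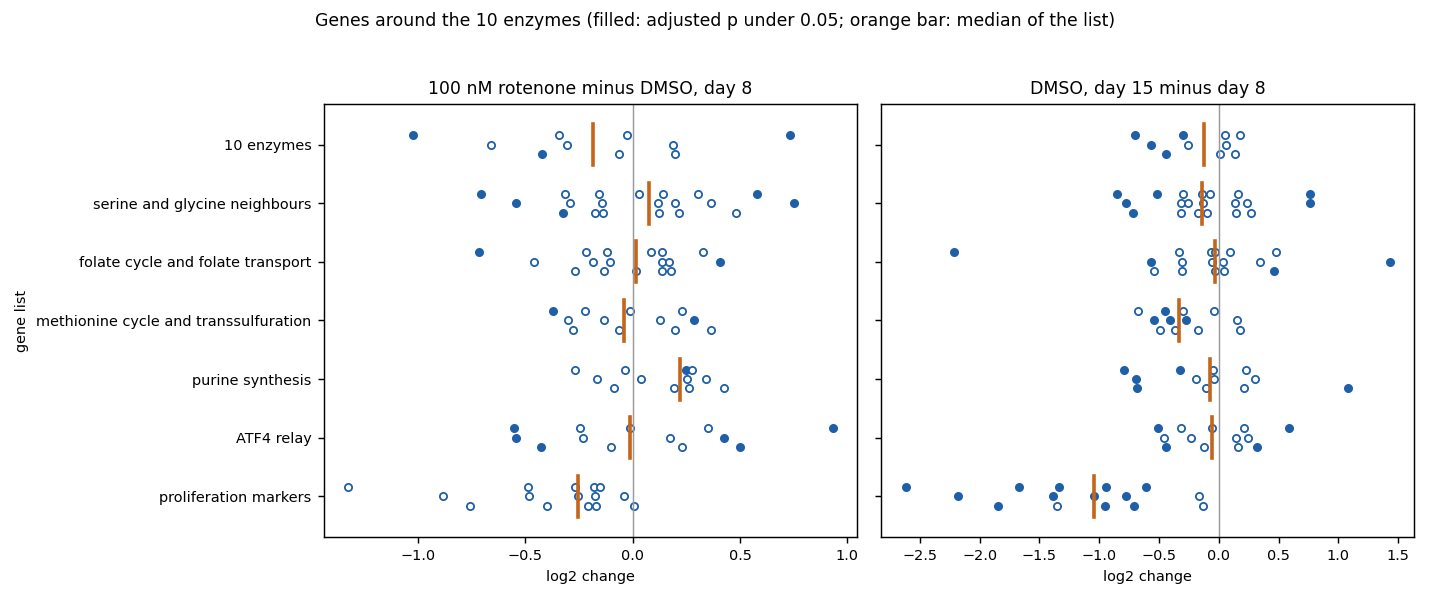
Log2 change of the 10 enzymes and of the genes of 6 lists around them (x axis), 1 point a gene, by list (y axis), filled at an adjusted p under 0.05, with 100 nM on day 8 (left) and between the days in DMSO (right); the bar is the median of the list, and the 2 panels have different scales. Medians with 100 nM lay between -0.26 and 0.22, and the proliferation markers lay lowest between the days, at a median of -1.05.

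Over the 24 arrays, the genes whose level ran most like that of PHGDH were RDH5 (Pearson r = 0.972), CORO1A (0.969), ELOB (0.966), DEDD2 (0.966) and ACKR1 (0.964), among 15649 genes well above background on at least 12 arrays. Among those most like MTHFD1 were CCNB1IP1 (0.979), ERCC1 (0.975), MFNG (0.974) and FOXO6 (0.970). These are descriptions over arrays that share groups and slides. Without day 15 DMSO replicate 1 these r lay between 0.963 and 0.971 for PHGDH and between 0.971 and 0.979 for MTHFD1.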

How the data were processed

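RNA of 24 samples was measured on one-color Agilent arrays. The authors deposited the spot intensity given by Feature Extraction (11.5.1.1 and 12.0.0.7 per the file headers), with local background and flags, and a table of log2 values normalized by them, used as an alternative. The steps followed the study's methods. The median intensity was corrected with normexp (offset 0) and quantile normalized. Slide 1 was then corrected with parametric ComBat, written out here and tested on simulated data, with the groups as covariates. A spot had to lie above 1.1 times the 95th percentile of negative control spots on 3 or more arrays. Flagged values and controls were dropped, and means were taken over the spots of each probe, then over each gene's probes. Names came by accession through RefSeq of GRCh38.p14, where 30275 of 50599 probes matched; the build of the array design differs, and coordinates are given for promoter windows only. Saturated spots were kept, and no probe of the enzymes was saturated.

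Groups were compared with limma 3.58.1 (lmFit and eBayes, R 4.3.3) in 1 fit of 8 group means with 16 residual degrees of freedom, two-sided, adjusted by Benjamini-Hochberg over 21240 genes; ± is the SE of the fit. Before batch correction, arrays of the same number deviated together (r of 0.167 or more, median 0.460, in 84 pairs of arrays of different groups). The numbers thus pair the samples through the slide, and slide 1 was the repeated one. The fit of 8 group means has no term for the slide, so that its SE and p values are not those of a paired design. A replicate block was an alternative. Alternatives were other signals, offsets, scalings, filters, probe summaries, batch treatments, arrays in the fit, the authors' values, and leaving out each array; the gene lists and correlations without day 15 DMSO replicate 1 were added after the data were seen. The members, lists and tests were chosen with earlier results of these data known. The text names the 10 enzymes, of each list the 3 genes with the smallest p with 100 nM on day 8 and the 2 between the days, the 5 genes most like PHGDH and most like MTHFD1 (1 of these is not reported here), and genes of small counts, such as the neuronal markers and ATF4, chosen after their values were seen. The number of arrays limits the precision. Motifs and figures used Python 3.11.15, with matplotlib 3.10.9.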

Additional observations from a re-analysis of the deposited data

Results flagged for a closer look

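With 100 nM, the log2 change of PHGDH rose by 0.9998 from day 8 to day 15 (interaction in limma, adjusted p = 0.0022), and it stood out because 2 days under the same contrast differed. On each slide PHGDH was lower than DMSO on day 8, by -1.18, -0.79 and -1.09, and within 0.17 of it on day 15. The call was lost on slides 2 and 3 alone (0.246) and without batch correction (0.053).

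The change of MTHFD1 with 100 nM differed between the days in the other direction, by -0.70 (adjusted p = 0.012). It was lost on slides 2 and 3 alone (0.163), without batch correction (0.115) and with only the compared arrays in the fit (0.138).

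SHMT2 was 0.43 higher after 24 h than after 12 h of 50 nM on day 8 (adjusted p = 0.022), a difference between 2 durations of the same dose. The call was lost with 5 of the 6 compared arrays left out in turn (0.057 to 0.150), with 75th percentile scaling (0.059), without batch correction (0.267), in a fit of the compared arrays alone (0.433) and on slides 2 and 3 alone (0.955).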

How the results depend on the processing

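Counts are of enzymes that changed more than 1.5-fold with an adjusted p below 0.05. The share of all genes called under each setting is not given beside them, so that nothing is read from these counts. A change of an enzyme count cannot be told apart here from a change over all genes. Without day 15 DMSO replicate 1, for example, 2344 of all genes were called between the days, against 1230 up and 1356 down with it. For 100 nM on day 8 the count was 2, and it was 1 with only the compared arrays in the fit, where MTHFD1 had an adjusted p of 0.051, and 3 with any fold change, and with the authors' values or only probes well above background on all arrays of a group, where ALDH1L2 was added. For 50 nM for 24 h it was 3, and 1 with only the compared arrays. For 50 nM for 12 h it was 3, and 1 with a normexp offset of 50, 0 on slides 2 and 3 alone, 0 with only the compared arrays and 7 with any fold change. Between the days in DMSO it was 1, and 0 with an offset of 50, with 75th percentile scaling, without batch correction, on slides 2 and 3 alone and with the authors' values, and 4 with any fold change. For the interaction it was 2, and 0 without batch correction, 0 on slides 2 and 3 alone and 1 with only the compared arrays. For 24 against 12 h it was 0, and 1 with any fold change. Leaving out 1 array gave 2 to 2 enzymes for 100 nM, 1 to 2 for 50 nM for 24 h, 2 to 3 for 12 h, 1 to 2 between the days and 2 to 2 for the interaction, and 0 to 0 in the other comparisons. These refits kept the normalization of all arrays.

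With the slide as a replicate block in place of ComBat, the counts were 3, 3 and 4 for 100 nM, 50 nM for 24 h and 50 nM for 12 h on day 8, with ALDH1L2 added, 1 between the days and 2 for the interaction, and the block changed no other call.

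The median change of the enzymes moved by more than its spread in 4 cases, to 0.044 for 100 nM on day 15 with 75th percentile scaling, to -0.018 and 0.036 for 50 nM for 24 h on day 15 on slides 2 and 3 alone and with the brightest probe of a gene, and to 0.21 for 24 against 12 h with the authors' values. No called change of an enzyme turned its direction; over refits of called changes, 118 kept and 20 lost the call with an array left out, and 176 kept and 55 lost it under the other settings, while 10 refits of uncalled changes passed. The cause was not tested, except that fewer arrays estimate the spread in the fits of compared arrays and on slides 2 and 3. PHGDH passed for 100 nM under all alternatives, and lost the call at 12 h on slides 2 and 3 alone (0.067) and with only the compared arrays (0.060). PSAT1, PSPH and MTHFD2 lost their calls at 12 h without day 8 DMSO replicate 1 (0.065, 0.124 and 0.088). PSPH and MTHFD2 also lost them without some rotenone arrays, at up to 0.110 and 0.080. With the processed signal the median of all genes between the days moved from -0.04 to 0.11, and with 75th percentile scaling that of the interaction from -0.01 to 0.14; the share of called genes that were higher moved from 47.6% to 62.3% and, at 12 h, from 47.3% to 57.7%.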
